A study of Mus musculus with 60 samples.

Results

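Mouse tail tip fibroblasts that carry the reprogramming factors were compared between day 2 and day 4 of induction, in WT cells without any added small molecule. The comparison was fixed by sample label: the 3 WT libraries at day 4 without VC against the 3 WT libraries at day 2 without VC, which are 6 of the 60 libraries of the series and 6 of the 36 in its reprogramming count table. The WT cells (labelled 4FJ (+/-) OCT4-GFP) were from female tail tips at 22 weeks of age and carried a doxycycline-inducible cassette of Oct4, Sox2, Klf4 and c-Myc with an Oct4 reporter. Doxycycline was given at 2 ug/ml, and VC stands for ascorbic acid at 50 ug/ml plus the GSK3 inhibitor CHIR99021 at 3 uM. For comparison, the same interval was taken in WT cells given VC (3 libraries a day) and in D/KO cells (3 libraries a day), which are reprogrammable cells with the genotype Ercc1 d/- from males at 8 weeks of age on a C57BL6J/FVB hybrid background. WT cells at day 0, with no doxycycline, are given as the starting level (3 libraries). Genotype, sex, age and line change together between WT and D/KO cells. No WT library was cultured for 4 days without doxycycline, so time in culture and time in doxycycline cannot be told apart. RNA was taken from cells in triplicate and the labels name no separate animals, so p-values measure the spread between these libraries, which may be technical.

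Induced reprogramming starts with an initiation phase, in which fibroblasts express the 4 factors from a transgene, begin to lose mesenchymal features and gain some epithelial ones before the pluripotency network is active. The cells also change their cell cycle, metabolism and translation in this phase. Oct4 (Pou5f1) and Sox2 are pluripotency transcription factors that adult fibroblasts hardly express, while Klf4 and Myc are expressed by many dividing or stressed cells.

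From day 2 to day 4, 26 of 33 amino acid response genes, a list put together after the values were seen, and 21 of 36 mitosis genes fell in WT cells (22 and 14 without day 2 replicate 2), the factors Pou5f1, Sox2 and Myc rose with all libraries in the fit but were not called without that library, and some genes that were under 1 CPM at day 0 and had a mean of 5 CPM or more at day 4, among them Sostdc1, Ano1, Myoc and Atp2a3, rose by 4-fold or more. Of 15832 genes tested, 1464 (9.25% of all genes tested) were higher at day 4 and 1942 (12.3%) were lower at an adjusted p under 0.05 (edgeR quasi-likelihood test with Benjamini-Hochberg adjustment, used for every adjusted p here). Most changes were small: the median absolute log2 fold change of the called genes was 0.56, and 267 rises and 220 falls reached 1 on the log2 scale. The median log2 fold change of all genes was -0.021.

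The day 4 libraries were alike and the day 2 libraries were not, which touches every result here. Total counts ran from 16538374 to 18187048 in the 6 libraries. On log2 CPM of 10239 genes, the distance between day 4 libraries was 17 to 18.5, and the distance between day 2 libraries was 28.1 to 36.9. Day 2 replicate 1 lay nearer to the day 4 libraries (33.3 to 34) than to day 2 replicate 2 (36.9), and day 2 replicate 2 lay farthest from day 4 (55.4 to 56.1). With genes split into 4 equal groups by exon length, in that library the group with the shortest exons stood 0.207 above the mean of the day 2 libraries on the log2 scale, and the group with the longest exons 0.156 under it. Without day 2 replicate 2, 458 genes were higher (2.89%) and 659 lower (4.16%). Leaving out a day 4 library moved the counts less, to 918 higher and 1232 lower without replicate 3, 1000 and 1272 without replicate 1, and 1006 and 1281 without replicate 2.

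The change also moved with gene length in WT cells. From the group with the shortest exons to that with the longest, the median log2 fold change from day 2 to day 4 was -0.286, -0.127, 0.017 and 0.199. It was -0.18 to 0.133 without day 2 replicate 2, -0.145 to 0.091 in WT cells with VC, and -0.017 to -0.001 in D/KO cells, where the second group had the lowest median, -0.02. The part of RNA quality or library preparation in this trend was not tested. A fit with an offset for gene length in each library, added after the values were seen, called 906 genes higher (5.72%) and 1558 lower (9.84%). A stricter set of 279 rises and 481 falls kept its call whichever 1 of the 6 libraries was left out and with the length offset, both with all libraries and without day 2 replicate 2; these 760 genes, 22.3% of those called, are termed called in every fit.

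**Figure D1:**
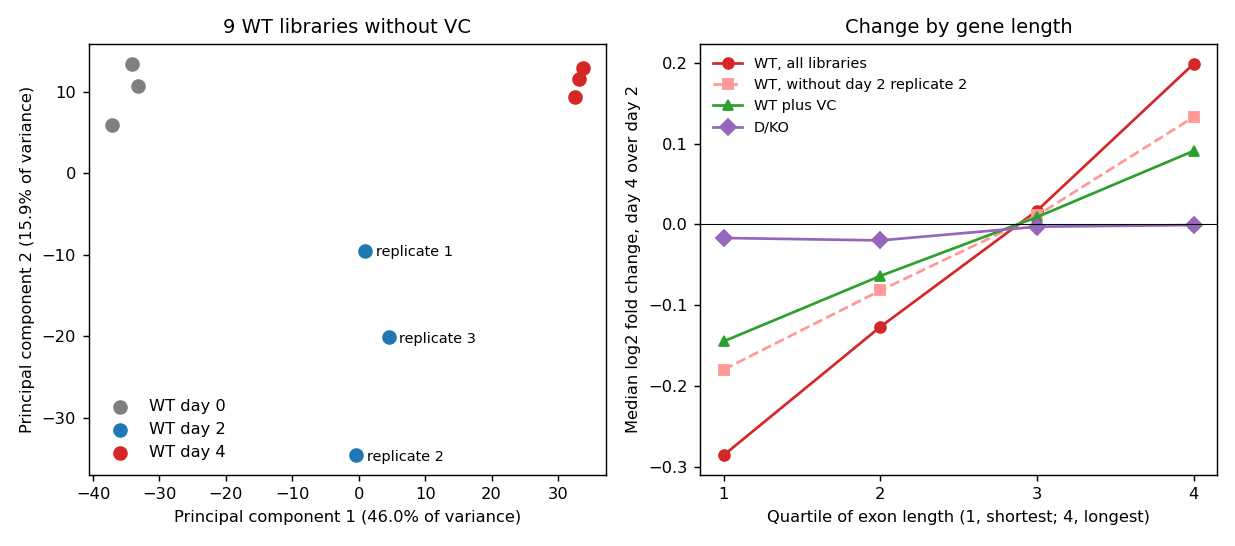
Left, WT libraries without VC on the first 2 principal components of log2 CPM (46% and 15.9% of variance), with the day 2 replicates numbered. Right, median log2 fold change from day 2 to day 4 (y axis) in 4 equal groups of genes by exon length (x axis, shortest to longest): the WT line climbs from -0.286 to 0.199, the D/KO line stays between -0.02 and -0.001.

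The reprogramming factors came first as a check of the labels. Pou5f1 was at 41.5, 12.5 and 48.8 TMM-normalised CPM in the day 2 libraries and at 59.9, 56 and 65.8 CPM at day 4, from a mean of 1.96 CPM at day 0. Sox2 was at 57.8, 25.3 and 59.7 CPM at day 2 and at 86.8, 75.2 and 89.3 CPM at day 4, from 2.29 CPM at day 0. Both genes were lowest in day 2 replicate 2, and their day 2 and day 4 libraries did not overlap, as in 39.7% of all genes tested. Sox2 rose by 0.82 ± 0.21 (log2, SE, adjusted p = 0.00659) and Pou5f1 by 0.82 ± 0.25 (adjusted p = 0.0192). Myc rose by 0.34 ± 0.11 (adjusted p = 0.0226), from 138, 130 and 138 CPM to 173, 178 and 162 CPM. Klf4 was at 229, 175 and 178 CPM at day 2 and at 232, 221 and 235 CPM at day 4 and was not called (0.24 ± 0.18, adjusted p = 0.353). Without day 2 replicate 2 none of the 4 factors was called (edgeR, 3 at an unadjusted p under 0.05), with adjusted p of 0.0917 for Sox2, 0.101 for Myc, 0.17 for Pou5f1 and 0.636 for Klf4. Counts do not separate the cassette from the endogenous genes.

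The largest rises among genes with a mean of at least 5 CPM at day 2 or day 4 were led by Sostdc1 and Myoc. Sostdc1, a secreted antagonist of BMP and Wnt signalling (chr12:36364137-36368451, GRCm39), was at 1.78, 2.26 and 1.76 CPM at day 2 and at 9.62, 12.3 and 10.8 CPM at day 4, a 5.63-fold rise (log2 2.49 ± 0.35, adjusted p = 1.11e-05). It was at 0.0363 CPM at day 0. Myoc, an extracellular glycoprotein, rose from 0.7, 1.49 and 1.32 CPM to 4.76, 6.52 and 6.35 CPM, and it lies opposite the antisense gene Myocos. Ano1, a calcium-activated chloride channel (chr7:144142278-144305711), was at 8.73, 6.84 and 7.48 CPM at day 2 and at 34.7, 32.1 and 29.6 CPM at day 4, a 4.18-fold rise (log2 2.06 ± 0.17, adjusted p = 2.64e-10). Atp2a3, a calcium pump of the endoplasmic reticulum, was at 2.1, 3.08 and 1.87 CPM and then at 9.98, 10.1 and 11.2 CPM, and Ryr3, a calcium release channel, rose by 2.03 ± 0.28 on the log2 scale. All of these genes were called in every fit, and for each of them the day 2 and day 4 libraries stood apart, as the rule for naming them required.

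Eln, which encodes elastin, was the most abundant of the leading rises (chr5:134731445-134776322). It was at 128, 134 and 199 CPM at day 2 and at 558, 523 and 553 CPM at day 4, a 3.55-fold rise (log2 1.83 ± 0.3, adjusted p = 7.51e-05), from 78.7 CPM at day 0. The other leading rises were Kcnq1ot1 (2.3 ± 0.47), Kank4 (1.87 ± 0.23), Grin3a (1.78 ± 0.37) and Als2cl (1.76 ± 0.18) on the log2 scale. Kank4 codes for a regulator of the actin skeleton and Grin3a for a glutamate receptor subunit. Kcnq1ot1 is a long non-coding RNA transcribed antisense to Kcnq1, and its reads cannot be told apart from those of its partner where strand was not used in counting. All 4 were called in every fit, and Kcnq1ot1, with 93092 bases of exons, had a smaller log2 change of 1.5 with the length offset.

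With the same limit of 5 CPM, the largest falls were led by Cth, cystathionine gamma-lyase, which makes cysteine from cystathionine (chr3:157599868-157630739). Cth was at 9.97, 12.4 and 10.4 CPM at day 2 and at 2, 2.07 and 3.26 CPM at day 4, a 4.48-fold fall (log2 -2.16 ± 0.19, adjusted p = 5e-10), from 17.7 CPM at day 0. Tnn, the matrix protein tenascin N, was at 20.7, 18.2 and 21.5 CPM at day 2 and at 5.07, 4.66 and 4.09 CPM at day 4, a 4.36-fold fall (log2 -2.12 ± 0.18, adjusted p = 2.64e-10), after a mean of 124 CPM at day 0. The rule for naming the largest falls required groups that did not overlap. Igfbp2, which binds insulin-like growth factors, went from 83.1, 107 and 108 CPM to 30.3, 34.8 and 32.6 CPM (log2 -1.61 ± 0.24). Dlk1, a membrane protein of the Notch ligand family that marks immature cells, went from 16.7, 14.4 and 21.2 CPM to 4.09, 4.13 and 6.73 CPM (log2 -1.81 ± 0.28). The other leading falls were Trib3 (-1.56 ± 0.26), Snhg8 (-1.52 ± 0.24), Klf2 (-1.52 ± 0.19), Itga7, an integrin that binds laminin (-1.48 ± 0.23), Chac1 (-1.45 ± 0.37) and Snhg12 (-1.44 ± 0.17). Of these 10 genes, Chac1 alone was not called in every fit (adjusted p = 0.0539 with the length offset and without day 2 replicate 2).

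**Figure D2:**
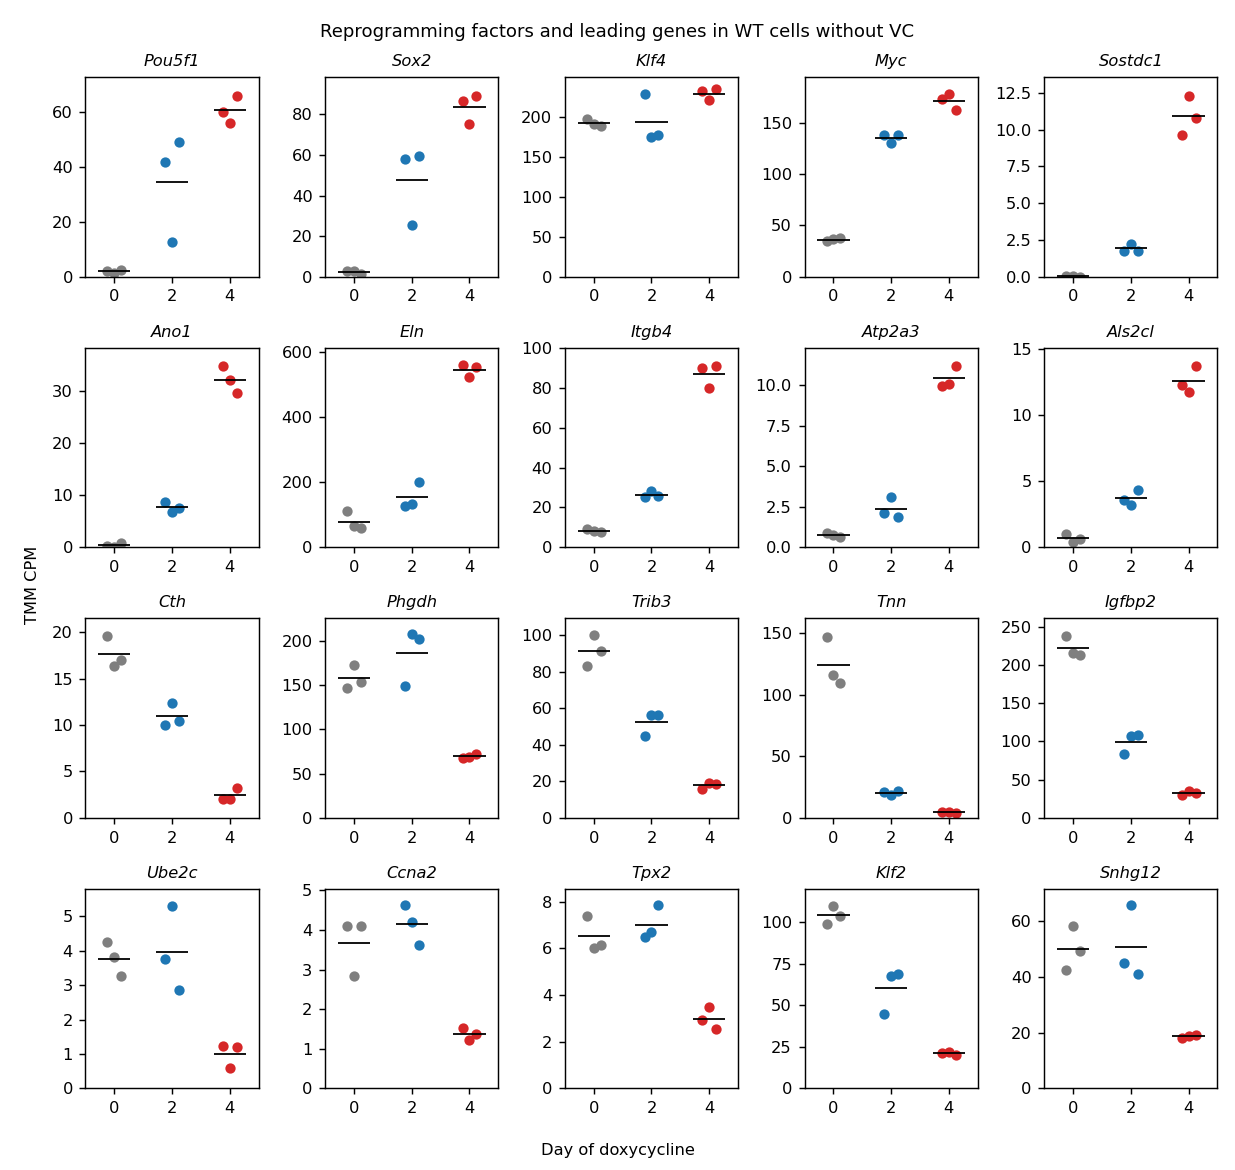
TMM-normalised CPM (y axes, each from 0) at days 0, 2 and 4 of doxycycline (x axes) in WT cells without VC, 1 point per library with the mean as a line, for the 4 factors, leading rises and falls and members of the lists. Day 2 and day 4 points are apart in each panel except Klf4, as they are in 39.7% of all genes tested. Day 2 replicate 2 (the middle blue point) is lowest for Pou5f1 and Sox2.

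Many genes of the amino acid response fell. ATF4 is the transcription factor that cells make when amino acids are short or proteins misfold in the endoplasmic reticulum, and its targets make serine, glycine, cysteine and asparagine, import amino acids and charge tRNAs. This list and that of the tRNA synthetases were put together after the values were seen, so their counts describe the fall and do not test it. Of 33 genes of the ATF4 and serine one-carbon list, all tested, 26 were lower and 0 were higher at day 4, and the median log2 fold change was -0.75. Without day 2 replicate 2, 22 were lower (median -0.69), with the length offset 26 (median -0.7), and 20 were called in every fit.

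All 3 enzymes of serine synthesis fell. Phgdh, the first of them, was at 149, 208 and 202 CPM at day 2 and at 68.2, 68.7 and 72.7 CPM at day 4 (log2 -1.41 ± 0.12, adjusted p = 6.26e-10). Psat1 went from 89.4, 97.7 and 82.4 CPM to 33, 36.4 and 34.3 CPM (-1.38 ± 0.15), and Psph from 23.9, 31.8 and 29.3 CPM to 9.36, 12.5 and 10.6 CPM (-1.39 ± 0.16). Groups did not overlap for any of the 3, which held for 6293 (39.7%) of all genes tested. Phgdh had a mean of 158 CPM at day 0, so its day 2 libraries lay on either side of the starting level and its day 4 libraries lay below it. The mitochondrial one-carbon enzymes Mthfd2 (-1.16 ± 0.14) and Shmt2 (-0.72 ± 0.11) fell too, as did Pck2, the mitochondrial form of phosphoenolpyruvate carboxykinase (-1.05 ± 0.11).

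Amino acid carriers and the signalling genes of the response showed the same direction. Slc7a5, the light chain of a large neutral amino acid carrier, was at 173, 164 and 167 CPM and then at 85.5, 89.9 and 89.2 CPM (-0.93 ± 0.13), and its heavy chain Slc3a2 changed by -0.51 ± 0.11. Asns, asparagine synthetase, went from 131, 149 and 140 CPM to 87.5, 87.9 and 83.6 CPM (-0.7 ± 0.12). Trib3, a pseudokinase that ATF4 induces, was at 44.7, 56.2 and 56.4 CPM at day 2 and at 15.9, 19.1 and 18.5 CPM at day 4, and Chac1, which degrades glutathione, at 20.3, 23.9 and 16.3 CPM and at 7.27, 7.42 and 7.45 CPM. Atf4 itself was at 244, 329 and 243 CPM and at 157, 162 and 156 CPM (-0.78 ± 0.19, adjusted p = 0.00447), and was not called without day 2 replicate 2 (adjusted p = 0.0638). Ddit3, the factor CHOP, was at 36.9, 57.4 and 36.8 CPM and at 30.5, 29 and 30.7 CPM and was not called (adjusted p = 0.0574). Of 20 cytosolic tRNA synthetases, 12 were lower and 0 higher (median -0.35), and 10 were called in every fit. Sars1, which charges serine tRNA, led them, from 255, 303 and 277 CPM to 177, 165 and 158 CPM (-0.74 ± 0.09, adjusted p = 1.52e-06).

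Promoters of this list are shown because ATF4 binds a composite element with C/EBP partners, TGATGNAA. RefSeq promoters of 300 bases (250 before and 50 after the start, GRCm38.p6, a build other than that of the counts) were matched by symbol for 28 of the 33 genes, and 10 of them held TGATGNAA on either strand (35.7%), against 4.51% of all 27025 genes of the promoter table and 2.77% of 11280 genes tested that it holds. Among the members called lower, 9 of 22 held it. Capitals mark the match, read on the opposite strand in Chac1 and Trib3.

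Chac1 promoter, chr2:119350992-119351291, plus strand: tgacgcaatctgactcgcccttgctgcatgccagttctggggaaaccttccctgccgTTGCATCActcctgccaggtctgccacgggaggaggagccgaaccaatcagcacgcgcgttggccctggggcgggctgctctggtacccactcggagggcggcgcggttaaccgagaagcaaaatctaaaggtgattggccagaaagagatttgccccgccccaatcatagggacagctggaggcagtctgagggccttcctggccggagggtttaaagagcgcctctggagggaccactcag

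Trib3 promoter, chr2:152344011-152344310, minus strand: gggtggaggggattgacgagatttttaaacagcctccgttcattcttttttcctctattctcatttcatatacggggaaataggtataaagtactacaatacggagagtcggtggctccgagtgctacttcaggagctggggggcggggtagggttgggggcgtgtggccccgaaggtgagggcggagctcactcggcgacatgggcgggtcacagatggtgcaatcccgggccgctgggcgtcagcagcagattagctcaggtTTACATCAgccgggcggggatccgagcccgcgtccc

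Asns promoter, chr6:7693160-7693459, minus strand: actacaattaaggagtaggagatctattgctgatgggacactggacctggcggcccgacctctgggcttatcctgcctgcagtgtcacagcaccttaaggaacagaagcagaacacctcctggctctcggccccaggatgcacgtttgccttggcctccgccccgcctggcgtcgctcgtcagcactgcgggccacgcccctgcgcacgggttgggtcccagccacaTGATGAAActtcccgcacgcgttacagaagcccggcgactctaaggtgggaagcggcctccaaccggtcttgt

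The match starts 193 bases before the annotated start in Chac1, 23 bases before it in Asns and 14 bases after it in Trib3. A match in these letters is a description and no evidence of binding in these cells.

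Many mitotic genes fell, from levels that were low at day 2. Of 36 genes of the mitosis list, all tested, 21 were lower and 0 higher, with a median log2 fold change of -0.82. Without day 2 replicate 2, 14 were lower (median -0.72), with the length offset 24 (median -0.86), and 11 were called in every fit. Ube2c, the ubiquitin-conjugating enzyme of the anaphase promoting complex, was at 3.77, 5.29 and 2.86 CPM at day 2 and at 1.23, 0.583 and 1.21 CPM at day 4 (log2 -1.98 ± 0.26, adjusted p = 1.98e-06). Ccna2, cyclin A2, was at 4.63, 4.21 and 3.63 CPM and at 1.53, 1.22 and 1.38 CPM (-1.59 ± 0.21), and Ccnb2, cyclin B2, at 3.99, 3.19 and 1.93 CPM and at 0.665, 1.01 and 1.1 CPM (-1.71 ± 0.26). In each of these genes every day 4 library lay below every day 2 library, where 39.7% of all genes tested had groups without overlap. Tpx2, a spindle assembly factor, changed by -1.23 ± 0.18, Cdca8 by -1.24 ± 0.2 and Cdk1, the mitotic kinase, by -0.75 ± 0.15. Mki67, the proliferation antigen, was at 9.7, 5.5 and 7.37 CPM and at 3.58, 4.66 and 4.09 CPM (-0.87 ± 0.31, adjusted p = 0.041, and up to 0.172 with 1 library left out). Foxm1, a driver of mitotic transcription, was at 6.52, 5.45 and 5.28 CPM and at 5.12, 5.51 and 7.84 CPM and was not called (adjusted p = 0.746). In bulk RNA, fewer cells of a kind and less RNA per cell cannot be told apart.

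Promoters of mitotic genes commonly hold a cell cycle homology region, TTTGAA, and CCAAT boxes, and these were counted on either strand in the same 300 bases. Of 28 mitosis genes matched, 18 held both (64.3%), against 7.97% of all genes in the promoter table and 5.99% of those tested. Of the members called lower 11 of 17 held both, and of those not called 7 of 11. Capitals mark both elements, read on either strand, in the 2 promoters shown, and in Ube2c a CCAAT on each strand overlap at 1 place.

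Ube2c promoter, chr2:164769679-164769978, plus strand: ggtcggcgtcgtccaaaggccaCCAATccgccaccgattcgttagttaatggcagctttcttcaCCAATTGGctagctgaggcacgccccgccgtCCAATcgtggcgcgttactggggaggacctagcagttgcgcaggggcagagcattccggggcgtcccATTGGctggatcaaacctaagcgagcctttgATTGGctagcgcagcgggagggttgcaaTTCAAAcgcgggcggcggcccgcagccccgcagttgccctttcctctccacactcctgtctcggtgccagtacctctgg

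Ccnb2 promoter, chr9:70421505-70421804, minus strand: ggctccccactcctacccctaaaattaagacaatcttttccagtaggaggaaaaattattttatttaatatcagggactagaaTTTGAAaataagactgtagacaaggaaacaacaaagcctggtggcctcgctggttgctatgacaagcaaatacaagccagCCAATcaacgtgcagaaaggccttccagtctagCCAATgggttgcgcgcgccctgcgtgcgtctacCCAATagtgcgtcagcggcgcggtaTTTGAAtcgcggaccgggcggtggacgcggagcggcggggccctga

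Replication genes and cell cycle inhibitors also moved down where they moved. Of 36 S phase genes, 10 were lower and 0 higher (median -0.23), but only 2 were lower without day 2 replicate 2 and 1, Uhrf1, was called in every fit. Uhrf1, which maintains DNA methylation behind the replication fork, was at 4.15, 4.21 and 4.24 CPM and then at 2.1, 1.59 and 2.65 CPM (-0.99 ± 0.2). Of 7 CDK inhibitors 3 were lower (median -0.27). Cdkn2a, which encodes p16 and p19ARF, was at 282, 441 and 363 CPM and at 216, 219 and 221 CPM (-0.73 ± 0.15, adjusted p = 0.000877) and was called in every fit. Cdkn1a, which encodes p21, was at 439, 473 and 430 CPM and at 482, 467 and 499 CPM (adjusted p = 0.465). Of 27 p53 targets, 2 were higher and 6 lower (median -0.03), 0 and 1 without day 2 replicate 2, and 1, Plk3, was called in every fit (-0.97 ± 0.21). The counts of these lists stand beside 9.25% of all genes tested that were higher and 12.3% that were lower. Without day 2 replicate 2 these shares were 2.89% and 4.16%.

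Many transcripts of ribosomal proteins and of the respiratory chain fell, and they are short. Both lists, and that of the small nucleolar RNA host genes, were put together after the values were seen. Of 85 cytosolic ribosomal protein genes tested, 66 were lower and 0 higher (median -0.58), and of 79 respiratory chain subunits 63 were lower and 0 higher (median -0.62). The median exon length was 1739 bases in the first list and 1587 in the second, and the shortest of the 4 length groups ends at 2459 bases. Without day 2 replicate 2 the lower members were 19 and 23 (medians -0.37 and -0.43), and with the length offset 53 and 51 (medians -0.43 and -0.48). Rpl18 was at 462, 689 and 613 CPM at day 2 and at 344, 316 and 333 CPM at day 4 (log2 -0.83 ± 0.15), and Cox6a1, a subunit of cytochrome c oxidase, at 145, 207 and 212 CPM and at 90.4, 91.9 and 97.9 CPM (-1.01 ± 0.18). In both genes day 2 replicate 1 was the day 2 library nearest to day 4. In D/KO cells 1 member of each list was lower, with medians of -0.09 and -0.13, but the test of the difference between the WT and D/KO changes called 0 ribosomal genes (edgeR, 46 at an unadjusted p under 0.05, and 3 called by DESeq2) and 4 respiratory genes. With VC, 6 ribosomal and 38 respiratory genes were lower (medians -0.23 and -0.43).

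Host genes of small nucleolar RNAs, which carry those RNAs in their introns and several of whose spliced transcripts are degraded when translated, fell too. Of 18 tested, 9 were lower and 0 higher (median -0.8), and all 9 were called in every fit. Snhg12 was at 44.9, 65.8 and 41.2 CPM and at 18.2, 18.8 and 19.2 CPM (-1.44 ± 0.17, adjusted p = 5.92e-07), and Gas5 at 74.2, 104 and 90.5 CPM and at 49.4, 51.4 and 56.8 CPM (-0.77 ± 0.17). The small RNAs themselves were not measured. The median exon length of this list was 3063 bases.

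Some glycolytic and hypoxia genes moved down with smaller changes, where 9.25% of all genes tested were higher and 12.3% lower. Of 26, 10 were lower and 1 higher (median -0.31), 4 were lower without day 2 replicate 2, and P4ha1 and P4ha2 were called in every fit. These 2 genes encode the catalytic subunits of collagen prolyl hydroxylase: P4ha2 was at 141, 179 and 169 CPM and at 107, 92.6 and 97.9 CPM (-0.71 ± 0.14), and P4ha1 at 557, 557 and 567 CPM and at 439, 406 and 413 CPM (-0.42 ± 0.09). Pgk1, phosphoglycerate kinase, changed by -0.67 ± 0.15, from 726, 901 and 798 CPM to 543, 494 and 491 CPM. Slc2a3, a glucose transporter, was the member that was higher (0.59 ± 0.17), though not without day 2 replicate 2 (adjusted p = 0.063). Of 28 ribosome biogenesis genes 3 were higher and 5 lower (median -0.08), beside the same 9.25% and 12.3% of all genes tested. Without day 2 replicate 2 the counts were 1 and 2, among them Nop16 (-0.64 ± 0.12).

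Most pluripotency genes did not pass the filter on low counts. Of 40 listed, 16 passed it, of which 2 were higher and 5 lower (median -0.15), against 9.25% and 12.3% of all genes tested. Without day 2 replicate 2 the counts were 1 and 3, against 2.89% and 4.16%. Tdgf1 was not matched under that symbol, and Nanog, Esrrb, Zfp42 and Lin28a were not among the genes tested. Klf2, a factor of the naive pluripotent state that fibroblasts also express, was at 44.6, 67.9 and 68.7 CPM and at 21.4, 21.7 and 20.2 CPM, from a mean of 104 CPM at day 0 (log2 -1.52 ± 0.19, adjusted p = 7.71e-07). Dnmt3l, a cofactor of DNA methylation, went from 3.18, 2.31 and 3.14 CPM to 0.716, 0.742 and 0.386 CPM (-2.21 ± 0.47). Sall1, a zinc finger factor, rose from 11.1, 9.3 and 8.53 CPM to 19.4, 16.5 and 17.9 CPM (0.9 ± 0.15, adjusted p = 7.66e-05).

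Epithelial genes rose in a few members. Of 43 epithelial junction genes 25 were tested, 5 of them higher and 2 lower (median 0.29), against 9.25% and 12.3% of all genes tested. Without day 2 replicate 2 the counts were 3 and 2, against 2.89% and 4.16%, and with the length offset also 3 and 2. The median was 0 without day 4 replicate 3. Itgb4, the integrin of hemidesmosomes, was at 25.1, 28.2 and 25.6 CPM and at 89.9, 79.7 and 91.2 CPM (log2 1.72 ± 0.14, adjusted p = 2.64e-10), from 8.21 CPM at day 0. Pkp1, a desmosomal plaque protein, was at 0.377, 1.34 and 1.32 CPM and at 4.86, 2.07 and 4.47 CPM (1.9 ± 0.32). Cdh3, P-cadherin, fell from 25.1, 22.3 and 19.8 CPM to 10.1, 8.74 and 6.29 CPM (-1.42 ± 0.21). These 3 members were called in every fit. Cdh1, E-cadherin, was at 0.216, 0.103 and 0.275 CPM and at 0.153, 0 and 0.0552 CPM, and Epcam was not tested.

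Epithelial transcription factors, keratins and cornified envelope genes had 1 to 3 members called in each direction, where 9.25% of all genes tested were higher and 12.3% lower. Of 10 epithelial transcription and splicing factors tested of 20, 1 was higher and 1 lower (median 0.13): Grhl3, a factor of epidermal differentiation, was at 0.162, 0.154 and 0.055 CPM and at 0.409, 0.848 and 0.773 CPM, and Klf5 was lower with all libraries (-0.84 ± 0.25, adjusted p = 0.0159) but not without day 2 replicate 2 (adjusted p = 0.062). Of 15 keratins tested of 22, 1 was higher and 3 lower (median -0.2), and 1 and 1 without day 2 replicate 2: Krt16 was at 0.108, 1.03 and 0.165 CPM and at 2.46, 1.8 and 1.88 CPM, and Krt19 fell from 16.7, 28.1 and 24 CPM to 13.8, 10.9 and 12.9 CPM (-0.87 ± 0.19). Of 13 cornified envelope genes tested of 32, 2 were higher and 2 lower (median 0): Tgm1, a crosslinking transglutaminase, rose by 1.38 ± 0.25, and Cdsn, corneodesmosin, changed by -1.43 ± 0.21.

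Fibroblast identity genes did not fall as a group. All 32 were tested, 8 were higher and 5 lower (median 0.05), with the length offset 7 and 4 (median -0.07), and without day 2 replicate 2 2 and 3 (median 0.06). The shares over all genes tested were 9.25% higher and 12.3% lower, 5.72% and 9.84% with the length offset, and 2.89% and 4.16% without that library. Prrx1, a mesenchymal homeobox factor, rose from 325, 262 and 284 CPM to 452, 468 and 447 CPM (0.65 ± 0.1), Tbx15 rose by 0.68 ± 0.11, and Twist1, a driver of mesenchymal transition, fell from 163, 177 and 193 CPM to 119, 110 and 122 CPM (-0.6 ± 0.12). Each of these was called in every fit. Snai1 was at 122, 100 and 64 CPM and at 75.8, 80.9 and 75.8 CPM (adjusted p = 0.32), and Zeb1 at 150, 110 and 126 CPM and at 164, 152 and 151 CPM (adjusted p = 0.0892). The defining markers of the labelled cell type were present throughout: Col1a1, Col1a2, Col3a1, Pdgfra, Thy1, Dcn and Lum summed to 40200 to 59100 CPM at day 2 and 38400 to 40000 CPM at day 4, and none of the 7 was called with all libraries. With the length offset Col1a1 (-0.49, adjusted p = 0.0312), Col1a2 (-0.49, adjusted p = 0.0165) and Col3a1 (-0.48, adjusted p = 0.0401) were lower.

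Some contractile genes fell. Of 20, 2 were higher and 5 lower (median -0.26), against 9.25% and 12.3% of all genes tested. Without day 2 replicate 2 the lower ones were also 5 (median -0.28), against 4.16% of all genes tested. Acta2, smooth muscle actin, was at 111, 127 and 83.7 CPM and at 65.5, 54.7 and 54 CPM (log2 -0.89 ± 0.17, adjusted p = 0.00034). Myl9, the regulatory myosin light chain, was at 57.5, 67.3 and 42.5 CPM and at 29.8, 24.4 and 24.7 CPM (-1.08 ± 0.16). Tpm2 (-0.98 ± 0.13) and Tpm1 (-0.62 ± 0.09), the tropomyosins, fell as well, and these 4 genes were called in every fit. Lmod1, a leiomodin, was lower with all libraries (-0.87 ± 0.27, adjusted p = 0.0199) and was not called in every fit (adjusted p up to 0.253 with 1 library left out). Cnn1, Actg2, Tagln and Myh11 were not called, with adjusted p of 0.0672, 0.157, 0.267 and 0.499. The focal adhesion genes Vcl (0.73 ± 0.18) and Actn1 (0.28 ± 0.1) rose with all libraries and were not called without day 2 replicate 2.

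Targets of TGFb and BMP were called in a few members, where 21.5% of all genes tested were called in either direction. Of 14 TGFb targets, 2 were higher and 2 lower (median -0.15), and 1 and 1 without day 2 replicate 2. Ltbp2, a latent TGFb binding protein, fell from 1380, 1260 and 1620 CPM to 990, 959 and 995 CPM (-0.54 ± 0.14), and Bhlhe40 rose by 0.63 ± 0.14. Of 14 BMP response genes, 2 were higher and 0 lower (median -0.11). These were Fst, follistatin (0.42 ± 0.13), and Atoh8 (0.56 ± 0.19), and neither was called without day 2 replicate 2. Id1, the inhibitor of differentiation that BMP induces, was at 78.9, 69 and 58.4 CPM and at 43.1, 43 and 42.6 CPM (-0.68 ± 0.28, adjusted p = 0.0828).

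The counts of matrix genes stand beside the 9.25% of all genes tested that were higher and the 12.3% that were lower. Of 20 collagens 3 were higher and 3 lower (median 0.01), and with the length offset 2 and 8 (median -0.15), a list of long transcripts with a median of 8079 bases. Col6a3, a chain of beaded filaments, was at 1800, 1330 and 2120 CPM and at 2990, 2980 and 2960 CPM (log2 0.77 ± 0.14, adjusted p = 0.000257). Col11a1 was at 109, 87.8 and 150 CPM and at 249, 256 and 248 CPM (1.12 ± 0.2), and Col5a3 at 186, 223 and 250 CPM and at 126, 117 and 130 CPM (-0.82 ± 0.15). These 3 were called in every fit, and their groups did not overlap, as in 39.7% of all genes tested. Of 28 matrix remodelling genes 1 was higher and 6 lower (median -0.05), among them Mmp23 (-0.55 ± 0.11) and Loxl1, a lysyl oxidase (-0.41 ± 0.09). The counts without day 2 replicate 2 were 2 and 1 for the collagens and 0 and 2 for the remodelling genes.

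No member of the DNA repair lists was called in every fit, and their counts stand beside the 21.5% of all genes called in either direction. Of 27 nucleotide excision repair genes 4 were lower and 0 higher (median -0.16), among them Mnat1, Rpa3 and Ercc1. Ercc1, the gene mutated in the D/KO cells, was at 21.6, 29.1 and 22.2 CPM and at 18.2, 16.9 and 17.8 CPM (log2 -0.46 ± 0.16, adjusted p = 0.0368), and was not called without day 2 replicate 2 (adjusted p = 0.294). Of 38 homologous recombination and Fanconi genes 3 were higher and 3 lower (median 0), of 17 end joining genes 3 were higher and 1 lower (median 0.1), and of 22 mismatch and base excision repair genes 0 were higher and 2 lower (median 0.02). In these 4 lists together, 2 genes were called without day 2 replicate 2, Rpa3, a subunit of the single-strand binding complex RPA, and Neil3, a glycosylase.

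Some chromatin genes, a list of long transcripts, rose with all libraries in the fit. Of 28 heterochromatin and DNA methylation genes 9 were higher and 1 lower (median 0.14, median exon length 6903 bases), against 9.25% and 12.3% of all genes tested. With the length offset 2 were higher and 1 lower (median 0.02), and without day 2 replicate 2 the higher ones were Ezh1 and Setdb1. Ezh1, a methyltransferase of Polycomb complex 2, was at 62.7, 60.4 and 60.4 CPM and at 83.8, 78 and 85.7 CPM (0.43 ± 0.11), and was not called with the length offset (adjusted p = 0.0591).

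The remaining lists held 0 to 5 calls each, where 9.25% of all genes tested were higher and 12.3% lower. Of 19 secreted inflammatory factors tested 1 was lower, Ccl7, a monocyte chemokine (-0.71 ± 0.2), with a median of -0.38. Of 23 interferon-stimulated genes none was called (median -0.06), with 0 at an unadjusted p under 0.05 in edgeR and 0 called by DESeq2. Of 24 cholesterol synthesis genes 4 were higher and 1 lower (median -0.01), with Srebf2, the regulator of the pathway, at 247, 234 and 233 CPM and at 338, 304 and 321 CPM (0.43 ± 0.09). Of 17 Wnt feedback genes 3 were higher and 0 lower (median 0.1), among them Lgr5, a receptor for R-spondins (0.95 ± 0.22). Of 18 AP-1 and immediate early genes 1 was higher and 1 lower (median -0.03), with Jund at 67.4, 98.1 and 102 CPM and at 51.3, 51.6 and 57.8 CPM (-0.74 ± 0.17). The counts without day 2 replicate 2 were 1 higher and 0 lower for cholesterol synthesis, 1 and 0 for Wnt, 0 and 1 for AP-1, and 0 and 0 for the inflammatory factors.

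**Figure D3:**
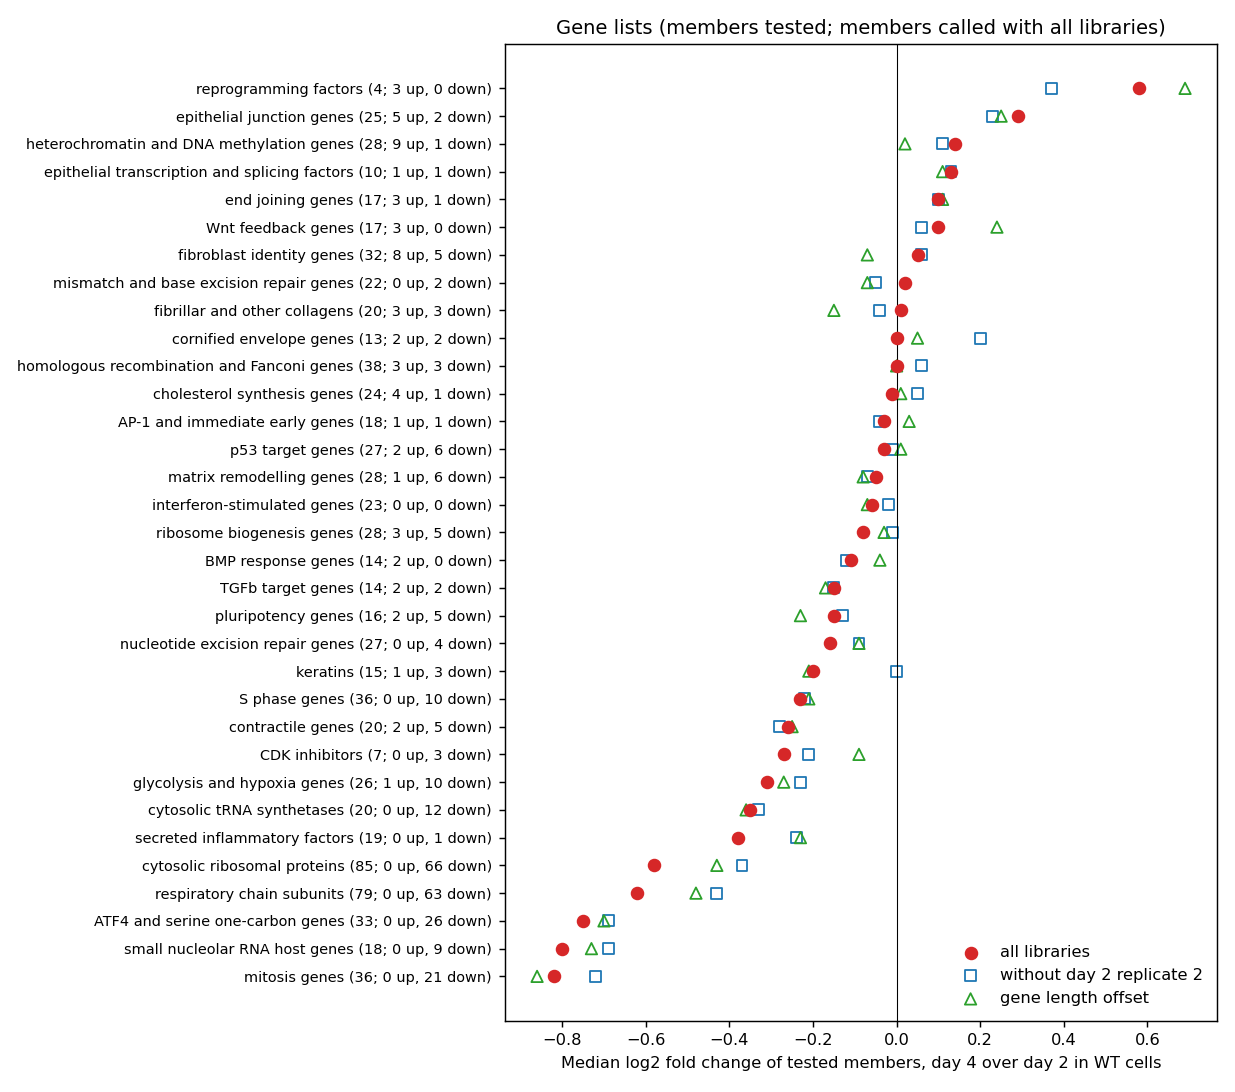
Median log2 fold change of the tested members of each list (x axis) from day 2 to day 4 in WT cells, with all libraries (red), without day 2 replicate 2 (blue squares) and with the gene length offset (green triangles); labels give members tested and called. Mitosis (-0.82), snoRNA host (-0.8) and ATF4 genes (-0.75) lie lowest in all 3, while ribosomal and respiratory genes move toward 0 without that library.

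The D/KO libraries held 2 markers of endothelial cells, Pecam1 and Cdh5, that WT libraries nearly lacked. All 5 endothelial markers summed to 61.7 to 66.5 CPM in WT cells at day 2, nearly all of it Tek. Pecam1 and Cdh5, adhesion molecules of the endothelium, had means of 181 and 140 CPM in D/KO cells at day 2 against 0.369 and 0.403 CPM in WT cells. Over the interval 4 of 5 endothelial markers were lower in D/KO cells (median -1.01), with Pecam1 at 126 and Cdh5 at 55 CPM at day 4, and the defining fibroblast markers were 1 higher and 4 lower of 7. The part of such cells in the differences between WT and D/KO cells was not tested.

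The same interval in D/KO cells held 712 genes higher (4.5% of genes tested) and 803 lower (5.07%), fewer than in WT cells with all libraries. Without WT day 2 replicate 2 the order was the other way, with 458 higher and 659 lower in WT cells. A test of the difference between the WT and D/KO changes called 277 genes with a higher log2 change in WT cells (1.75%) and 298 with a lower one (1.88%), and in 451 of these 575 genes the changes had opposite signs. The 2 counts were 828 and 807 without D/KO day 4 replicate 3 and 616 and 668 without WT day 2 replicate 1, and leaving out any 1 of the other 10 libraries gave 107 to 227 and 104 to 226, with the fewest without WT day 2 replicate 2 or D/KO day 4 replicate 2. The same 6 WT libraries serve in the comparison with VC, so the 2 differences are not independent. Genes of the ATF4 list fell in D/KO cells as well, with 22 of 33 lower and a median of -0.73, and Phgdh went from 213 ± 7.3 CPM to 77 ± 6.62 CPM (mean ± SD, n = 3). Cth and Aldh1l2 were the members whose change differed, Aldh1l2 by 1.4. Cth was at 13.8 ± 1.08 CPM at day 2 and 15.8 ± 1.09 CPM at day 4 in D/KO cells, and the WT change was lower (difference -2.36 ± 0.25 on the log2 scale, adjusted p = 2.4e-07). Of the mitosis list 19 of 36 were lower in D/KO cells (median -0.58), and Ube2c (difference -1.29 ± 0.31), Ccna2 (-1.02 ± 0.26) and Ccnb2 (-1.12 ± 0.33) fell more in WT cells.

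BMP response genes rose in D/KO cells. There 8 of 14 were higher and 0 lower (median 0.66), against 2 higher in WT cells, and 5 had a lower change in WT cells: Id1 (difference -1.74 ± 0.4), Id2 (-1.4 ± 0.26), Id3 (-1.15 ± 0.32), Nog, the BMP antagonist noggin (-1 ± 0.28), and Smad6 (-0.71 ± 0.2). The largest lower differences among well-expressed genes came from genes that rose in D/KO cells. Krt80, a keratin, was at 12.6 ± 1.02 and 69.5 ± 2.14 CPM in D/KO cells and at 1.51, 2.31 and 2.04 CPM and then 1.79, 0.954 and 2.37 CPM in WT cells (difference -2.67 ± 0.33, adjusted p = 6.52e-06). Laptm5, a lysosomal protein of blood cells, was at 17.6 ± 0.222 and 110 ± 28.4 CPM in D/KO cells and at 5.35 to 7.06 and 5.14 to 6.09 CPM in WT cells (-2.81 ± 0.39). Pitpnm3 (difference -2.75 ± 0.39) also rose in D/KO cells. Nppc, a natriuretic peptide, rose in D/KO cells from 7.66 ± 0.748 to 21.6 ± 4.08 CPM and was near 0 in WT cells, at 0.216 to 0.44 and 0.0512 to 0.0552 CPM, so no fold is given.

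In the other direction, Ednrb, the endothelin receptor B, was at 6.63 ± 1.11 and 1.21 ± 0.272 CPM in D/KO cells and at 3.96 to 4.2 and 3.09 to 4.09 CPM in WT cells (difference 2.33 ± 0.44, adjusted p = 0.00223). Cd93, which endothelial cells express (2.27 ± 0.51), fell in D/KO cells with the endothelial markers. Nckap5 (2.16 ± 0.51) fell in D/KO cells and was higher in WT cells with all libraries (0.87, adjusted p = 0.0406), but not without day 2 replicate 2 (adjusted p = 0.18) or with the length offset (adjusted p = 0.152). Podxl, podocalyxin, rose in WT cells, from between 0.22 and 0.377 CPM to between 1.59 and 2.04 CPM, against means of 102 and 129 CPM in D/KO cells (2.2 ± 0.38). Hbb-y, an embryonic globin, was at 0, 0.0514 and 0 CPM and at 2.25, 1.17 and 0.938 CPM in WT cells, and no fold is given for it. Tnn fell in WT cells and was not called in D/KO cells (difference -1.77 ± 0.24).

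Over the same interval WT cells given VC had 1575 genes higher (9.95%) and 1601 lower (10.1%), and the test of the difference called 504 genes with a higher log2 change without VC (3.18%) and 467 with a lower one (2.95%). These were 274 and 206 without day 4 VC replicate 2, 335 and 311 without day 4 VC replicate 3, 306 and 264 without day 2 VC replicate 3, 331 and 275 without WT day 2 replicate 2, and 297 and 244 without WT day 4 replicate 1. Of the mitosis list 0 of 36 were called with VC (edgeR, median -0.06, 3 at an unadjusted p under 0.05), and 10 had a lower change without VC. Ube2c was at 5.17 ± 0.845 and 5.72 ± 0.278 CPM with VC (difference -2.12 ± 0.33, adjusted p = 7.27e-05). Of the ATF4 list 7 were lower and 2 higher with VC (median -0.21), and 9 had a lower change without VC, among them Psph (-1.38 ± 0.24), Slc7a5 (-1.02 ± 0.18) and Phgdh (-0.99 ± 0.18). Phgdh was already at 53.7 ± 3.87 CPM at day 2 with VC and at 40 ± 1.06 CPM at day 4, both means below every day 2 and day 4 library without VC. Cth was at 0.639 ± 0.21 and 1.14 ± 0.31 CPM (difference -2.98 ± 0.35). Of 18 small nucleolar RNA host genes 9 were higher and 1 lower with VC (median 0.5), and 9 had a lower change without VC. This list and the ATF4 list were put together after the values of these WT libraries were seen. Their counts of differences use the same libraries, so they describe and do not test. Of the 9 that fell without VC, Snhg18 alone also fell with it (-0.61), and Gas5 was higher at day 4 with it (0.51, difference -1.28 ± 0.25).

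Cholesterol synthesis genes and BMP genes fell with VC in many members. Of 24 cholesterol synthesis genes 16 were lower with VC (median -0.48), and 9 had a higher change without VC, among them Srebf2 (difference 0.83 ± 0.12) and Sqle, squalene epoxidase (0.74 ± 0.12). Of the BMP list 8 were lower with VC (median -0.65), and Fst (1.45 ± 0.19), Chrdl1 (1.74 ± 0.24), Grem1 (1.3 ± 0.27), Atoh8 (1.24 ± 0.26) and Smad6 (0.64 ± 0.2) had a higher change without it. Among the Wnt genes the secreted antagonists Sfrp1 (2.12 ± 0.18) and Sfrp2 (1.67 ± 0.35) differed, as did Nkd2 (1.8 ± 0.37) and Lgr5 (1.24 ± 0.3). Of the fibroblast identity list 13 were lower with VC against 5 without, with 5 members higher in the test of the difference and 1, Twist1, lower, led by Fbln1, fibulin 1 (1.16 ± 0.17).

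The largest differences to VC were led by Comp and, in the other direction, by Meg3. Comp, a cartilage matrix protein, was at 56.7, 61.2 and 70.9 CPM and at 94.5, 88.7 and 102 CPM without VC, and at 40 ± 3.35 and 6.43 ± 1.33 CPM with VC (difference 3.23 ± 0.26, adjusted p = 1.04e-10). Sostdc1 was at 0.851 ± 0.168 and 0.58 ± 0.481 CPM with VC (difference 3.01 ± 0.6), so its rise was seen in WT cells without VC and not with it. Lgi2 (2.9 ± 0.34) and Col6a5 (2.41 ± 0.43) followed. Meg3, a maternally expressed non-coding RNA, was at 96.9, 64.1 and 102 CPM and at 51.6, 70.6 and 83 CPM without VC, and at 4.19 ± 2.53 and 48.9 ± 18.1 CPM with it (-3.88 ± 0.59). Rgs11 (-3.48 ± 0.66), Firre, a non-coding RNA of the X chromosome (-2.87 ± 0.63), and Erdr1y, which shares its sequence with a copy on the X chromosome and is uncertain for that reason (-2.69 ± 0.38), differed in the same direction.

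**Figure D4:**
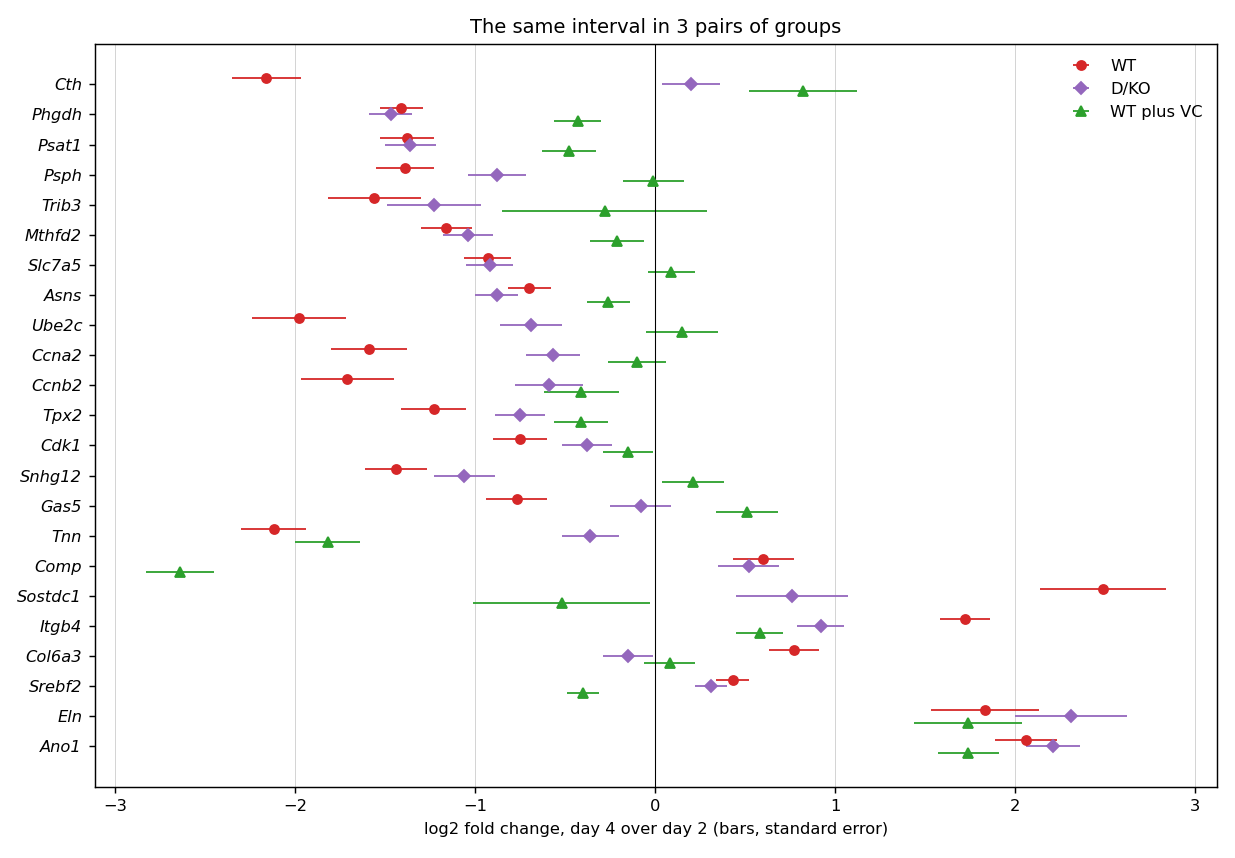
log2 fold change from day 2 to day 4 (x axis, bars are SE) of named genes in WT, D/KO and WT plus VC cells. Serine synthesis genes fall in WT and D/KO cells (Phgdh -1.41 and -1.47) and less with VC (-0.43), while Cth falls in WT cells alone.

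Markers of other cell types were summed in each WT library without VC. Keratinocyte markers summed to 5.23 to 7.5 CPM at day 2 and 4.04 to 4.82 CPM at day 4, with 5 of 7 tested and 1, Krt10, lower. Macrophage and leukocyte markers summed to 67.8 to 106 and 53.7 to 67.8 CPM, of which Lyz2 made up most, and Lyz2 was lower (-0.74 ± 0.21). Endothelial markers summed to 14.6 to 17.3 CPM at day 0, 61.7 to 66.5 CPM at day 2 and 95.3 to 95.7 CPM at day 4, nearly all of it Tek, which rose from 65.4, 60.1 and 65.8 CPM to 95.1, 94.6 and 95.5 CPM, while the defining markers Pecam1 and Cdh5 stayed under 1 CPM. Melanocyte markers summed to 15.2 to 18.3 and 21.4 to 22.5 CPM, nearly all Mitf (0.47 ± 0.17). Without day 2 replicate 2, Krt10, Lyz2 and Mitf were not called (adjusted p = 0.115, 0.102 and 0.179). Smooth muscle or pericyte markers summed to 8.14 to 10.3 and 8.06 to 10.8 CPM, chondrocyte or osteoblast markers to 39.9 to 41.6 and 33.3 to 43 CPM, Schwann markers to 2.72 to 3.91 and 2.25 to 3.02 CPM, and adipocyte markers to 0.925 to 1.02 and 0.265 to 0.614 CPM, with no member called. None of the 5 skeletal muscle markers was tested. The part of such cells in the results above was not tested.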

How the data were processed

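PolyA RNA of 36 reprogramming libraries was sequenced as paired reads. Per the labels and methods, reads were checked with FastQC, trimmed with Trim Galore, aligned to GRCm39 with HISAT2 and counted per gene with featureCounts of Subread by the authors. Versions and the strand setting are not given in the sources used here. The values used are the deposited counts, whole numbers that are not normalised. A second deposited table, of TGFb and inhibitor treatments, was not used here.

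Gene symbols and positions came from GENCODE M39, which held 98.69% of the gene identifiers. Exon lengths are those given with the deposited counts. Genes were kept with filterByExpr (minimum count 10, minimum total 15), libraries were scaled by TMM, and 1 model of 12 groups over all 36 libraries was fitted with edgeR 4.0.16 (R 4.3.3), with quasi-likelihood F-tests, two-sided, and Benjamini-Hochberg adjustment over 15832 genes. Calls used an adjusted p under 0.05. The standard error is the absolute log2 fold change divided by the square root of F. CPM are scaled by TMM. Differences between changes are interaction contrasts in the same model. The length offset is a natural spline of 5 degrees of freedom per library, added after the values were seen. DESeq2 1.42.0 was an alternative. The fit was tested on simulated data. Sequences are RefSeq promoters of GRCm38.p6. Counting error and the spread between libraries limit the precision, with total counts of 16538374 to 18187048 in the 6 libraries compared.

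Named genes are the 4 factors, the 10 largest rises and falls with a mean of at least 5 CPM at day 2 or day 4 and no overlap between the groups, up to 5 called members of each list in each direction with the smallest p, up to 5 genes in each direction with the largest tested difference, and cell type markers. Members not called are named for their values. Some genes that this rule names are not reported here. Samples, lists and tests were chosen with earlier results of these data known, and 5 lists (ATF4 and serine one-carbon genes, tRNA synthetases, ribosomal proteins, respiratory chain, small nucleolar RNA hosts) after the values were seen. The alternatives were another test, scaling, filters, sets of libraries, a size threshold, a prior count of 2 and leaving out each library.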

Additional observations from a re-analysis of the deposited data

Results flagged for a closer look

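The day 2 to day 4 change of WT cells without VC differed from that of D/KO cells by a test of the difference itself (edgeR, adjusted p under 0.05) in 277 genes with the higher log2 change in WT cells without VC and 298 genes with the lower one. Among the genes named above, the difference in log2 change was below 0 for Laptm5 (-2.81), Pitpnm3 (-2.75), Krt80 (-2.67), Cth (-2.36), Tnn (-1.77), Id1 (-1.74), Id2 (-1.4), Ube2c (-1.29), Snhg8 (-1.21), Plk3 (-1.19), Id3 (-1.15), Ccnb2 (-1.12), Jund (-1.05), Ccna2 (-1.02), Nog (-1), Slc2a3 (-0.98), Klf2 (-0.91), Smad6 (-0.71) and Twist1 (-0.68). It was above 0 for Actn1 (0.55), Itgb4 (0.8), Col6a3 (0.91), Aldh1l2 (1.4), Sostdc1 (1.74), Krt16 (2.12), Nckap5 (2.16), Podxl (2.2), Cd93 (2.27) and Ednrb (2.33).

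The day 2 to day 4 change of WT cells without VC differed from that of WT cells given VC by a test of the difference itself (edgeR, adjusted p under 0.05) in 504 genes with the higher log2 change in WT cells without VC and 467 genes with the lower one. Among the genes named above, the difference in log2 change was below 0 for Meg3 (-3.88), Rgs11 (-3.48), Cth (-2.98), Firre (-2.87), Erdr1y (-2.69), Dnmt3l (-2.21), Ube2c (-2.12), Laptm5 (-1.85), Snhg12 (-1.65), Ccna2 (-1.49), Psph (-1.38), Ccnb2 (-1.3), Itga7 (-1.3), Gas5 (-1.28), Snhg8 (-1.25), Cdca8 (-1.23), Slc7a5 (-1.02), Plk3 (-1), Phgdh (-0.99), Rpa3 (-0.96), Atf4 (-0.95), Mthfd2 (-0.95), Uhrf1 (-0.93), Psat1 (-0.9), Tpx2 (-0.82), Pck2 (-0.71), Nop16 (-0.7), Twist1 (-0.54) and Sars1 (-0.5). It was above 0 for Tek (0.45), Prrx1 (0.49), Pdgfra (0.63), Smad6 (0.64), Col6a3 (0.69), Sqle (0.74), Actn1 (0.75), Sall1 (0.78), Srebf2 (0.83), Bhlhe40 (0.88), Vcl (1), Col11a1 (1.08), Itgb4 (1.15), Fbln1 (1.16), Atoh8 (1.24), Lgr5 (1.24), Grem1 (1.3), Tgm1 (1.31), Fst (1.45), Sfrp2 (1.67), Chrdl1 (1.74), Nkd2 (1.8), Sfrp1 (2.12), Col6a5 (2.41), Lgi2 (2.9), Sostdc1 (3.01) and Comp (3.23).

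What sets these differences was not tested, and for D/KO cells genotype, sex, age and line cannot be told apart.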

How the results depend on the processing

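The 6 day 2 and day 4 libraries set how many genes were called. Leaving out each library in turn gave 458 to 1712 genes higher and 659 to 2082 lower from day 2 to day 4, with the fewest without day 2 replicate 2. The length offset gave 906 higher, and with day 2 replicate 2 also left out 346 higher and 637 lower. An absolute log2 change of at least 1 left 267 and 220. For the difference to D/KO cells, leaving out a library gave 107 to 828 higher and 104 to 807 lower, with the most without D/KO day 4 replicate 3 and the fewest higher genes without WT day 2 replicate 2 or D/KO day 4 replicate 2. DESeq2 gave 500 and 570, no filter on low counts 572 and 605, and a size of at least 1 95 and 112. For the difference to VC, leaving out a library gave 274 to 663 higher and 206 to 575 lower, with the fewest without day 4 VC replicate 2. There DESeq2 gave 783 higher, the length offset 828 higher, the compared libraries alone 710 lower, and a size of at least 1 130 and 234. The cause was not tested.

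Of 1861 pairs of a named gene and an alternative, 1749 kept direction and call, 112 lost the call and 0 changed direction. Of 297 pairs of a list and an alternative other than leaving out 1 library, 268 kept the list's median within the spread between libraries. The others gave the following medians. With the length offset they were -0.15 for fibrillar and other collagens, -0.09 for CDK inhibitors, 0.01 for p53 target genes, -0.07 for mismatch and base excision repair genes, 0.02 for heterochromatin and DNA methylation genes, -0.23 for secreted inflammatory factors, 0.24 for Wnt feedback genes and 0.03 for AP-1 and immediate early genes. With that offset and without day 2 replicate 2 they were 0.17 for epithelial junction genes, 0 for keratins, 0.22 for cornified envelope genes, -0.1 for CDK inhibitors, -0.06 for nucleotide excision repair genes, 0.04 for homologous recombination and Fanconi genes, 0.01 for heterochromatin and DNA methylation genes, -0.18 for secreted inflammatory factors, -0.21 for glycolysis and hypoxia genes and -0.64 for ATF4 and serine one-carbon genes. With at least 10 counts in every library they were 0 for epithelial transcription and splicing factors, -0.59 for keratins and 0.3 for Wnt feedback genes, with the 18 WT libraries alone -0.3 for pluripotency genes, -0.01 for epithelial transcription and splicing factors, -0.6 for keratins and 0.26 for Wnt feedback genes, and with the compared libraries alone -0.28 for pluripotency genes, -0.03 for epithelial transcription and splicing factors, -0.58 for keratins and 0.3 for Wnt feedback genes. Leaving out 1 library gave medians of -0.41 to -0.13 for pluripotency genes, 0 to 0.42 for epithelial junction genes, 0.13 to 0.31 for epithelial transcription and splicing factors, -0.3 to 0 for keratins, -0.03 to 0.2 for cornified envelope genes, -0.3 to -0.22 for S phase genes, -0.1 to 0.01 for p53 target genes, -0.01 to 0.06 for homologous recombination and Fanconi genes, 0.06 to 0.17 for end joining genes, -0.48 to -0.24 for secreted inflammatory factors, 0.06 to 0.26 for Wnt feedback genes and -0.08 to 0.07 for AP-1 and immediate early genes. The cause was not tested.

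No paired analysis was possible because the labels number the libraries of a group in series order only and tie no day 2 library to a day 4 library. With 3 libraries a group and total counts of 16538374 to 18187048, changes of genes under about 1 CPM rest on few counts, and a call that was missed does not show that a gene did not change.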
